A study of Rattus norvegicus with 20 samples.

Results

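Resting microglia in culture are described here from the 4 libraries that received only the vehicle, PBS, out of 20 libraries in the series. The libraries were chosen by their label, PBS replicates 1 to 4, without regard to any measured value. Sprague-Dawley rats, all male and 21 days old, were the source of the cells. CD11b-positive cells, CD11b being a surface integrin of myeloid cells, were captured by immunopanning from perfused brains without the cerebellum. Culture without serum lasted 5 days, and PBS was then added in a 50% change of the medium. The other groups of the series received zymosan at 100 ug/mL, morphine at 1 uM, or LPS or PAM3CSK4, each at 1 ng/mL, and they are used below only for estimating the reads behind a value and for asking whether a feature of 1 PBS library returned under the same replicate number. Separate animals or cultures are not stated for the 4 libraries, so the spread between them may be technical.

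Microglia are the resident macrophages of the brain. They depend on signalling through the receptor Csf1r and on the lineage factor PU.1, encoded by Spi1, and in the intact brain they carry a signature that includes P2ry12, Tmem119 and Sall1, which is known to fade when the cells are cultured away from neurons and astrocytes. As sentinels they also hold receptors for microbial products, complement and purines, and they respond through NF-kB and interferon pathways. The level of every gene is given as FPKM, fragments per kilobase of a transcript, relative to all fragments of the library, a scale on which genes of different length can be compared. Values listed for 1 gene are in the order PBS 1 to PBS 4, and values after ± are the SD over these libraries (n = 4). Ranks run from 1, the highest mean, over all 17310 genes of the table.

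PBS 1 stood apart from the other 3 libraries. Among the 6196 genes with a mean of at least 5 FPKM, Pearson's r of log2(FPKM + 1) across genes was 0.926 to 0.943 between PBS 1 and each other library and 0.972 to 0.977 among the other 3, as a description over genes that share a library. Levels in PBS 1 fell away with transcript length, as estimated from the size of the steps described below, which divided reads can distort. Relative to the mean of the other 3 libraries, its median log2 difference was 0.09 in the shortest of 5 equal bins of genes. It was -0.20, -0.37, -0.51 and -0.59 in the bins of increasing length. Ribosomal RNA genes differed too: Rn18s was at 0, 5126, 3079 and 2747 FPKM and Rn28s at 0, 435, 243 and 236, so that both were listed at 0 in PBS 1 alone. Means without PBS 1 are given beside some of the lists and genes that lean on it, but not all. A value with no second mean may lean on PBS 1 too: Tgfbr2 was at 59.8 FPKM with it and 70.4 without.

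The deposited values move in steps that correspond to whole reads or fixed fractions of a read, which allowed the reads behind most genes to be estimated. The depth of PBS 1, PBS 3 and PBS 4 was 0.852, 0.558 and 0.670 of that of PBS 2. The estimates summed to 5021789, 7405306, 3967136 and 4946262 reads in the genes for which the steps could be solved, in the order PBS 1 to PBS 4. Where a read was divided between places, its fractions can be counted as reads, so these sums can be too high. Among the 1875 genes of 20 to 100 FPKM with estimated reads, the median coefficient of variation over the 4 libraries was 15.8%, and it was 8.55% without PBS 1. Counting of the estimated reads alone would give a median of 3.53% in the same genes, a value that is too low where reads were divided. For the 2208 genes of 1 to 5 FPKM the corresponding values were 28.3%, 17.9% and 13.2%. Read counting is only 1 part of the spread between separate libraries. In bulk RNA, fewer cells of a type and less RNA per cell cannot be told apart.

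Of the 17310 genes, 8515 (49.2%) had a mean of at least 1 FPKM, and 8009 reached 1 FPKM in each of the 4 libraries. The 49.2% is the share to set beside every count of list members at 1 FPKM or more below. A further 6085 genes (35.2%) were listed at 0 in all 4. The summed signal was concentrated in few genes: the 10 highest of each library held 14.1% ± 1.91 (SD, n = 4) of it and the 100 highest held 33.9% ± 2.81. The median of the genes at 1 FPKM or more was 10.9 FPKM, 615 genes reached 100 FPKM and 29 reached 1000 FPKM.

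**Figure D1:**
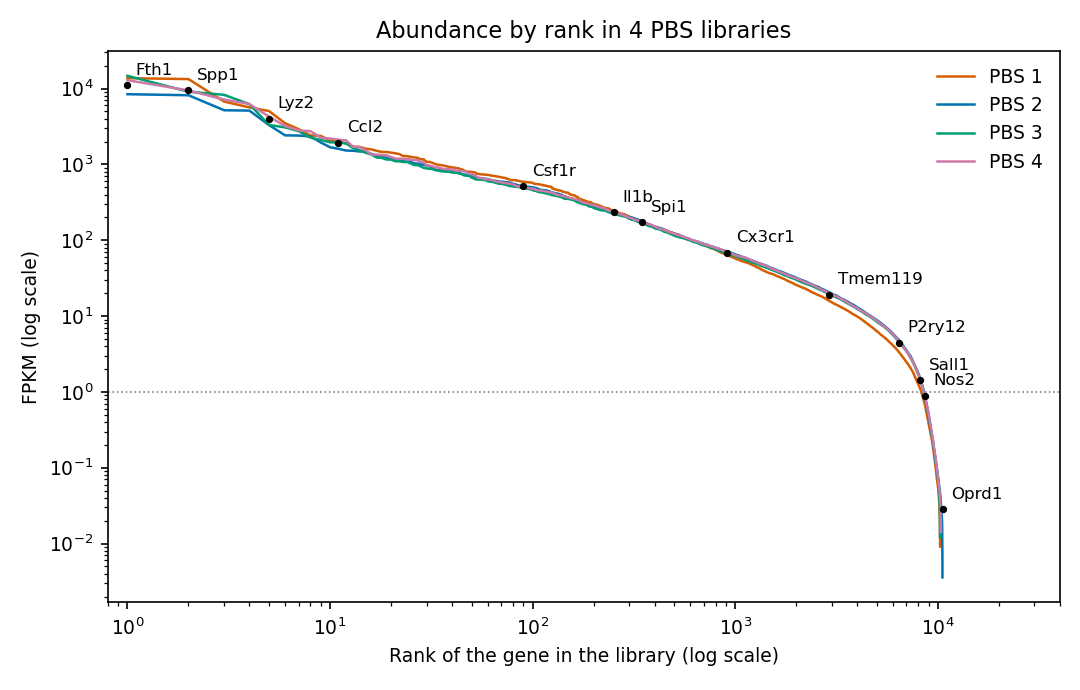
Level in FPKM (log axis) of every gene with a value above 0 against its rank within the library (log axis), with 1 line for each of the 4 PBS libraries; black points place named genes at their mean level and mean rank, and the dotted line is 1 FPKM. The lines run close together, with PBS 1 somewhat higher around the rank of Csf1r and lower beyond about rank 1000, and microglial signature genes are spread from Csf1r at 512 FPKM to Sall1 at 1.44 FPKM.

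Genes of translation, iron storage, the cytoskeleton and the lysosome filled most of the highest ranks. Of 83 ribosomal protein genes, 27 were among the 100 highest, and together they held 8.19% to 11.8% of the summed signal of a library. Fth1, the heavy chain of ferritin, led at 13715, 8433, 9110 and 12901 FPKM (11040 ± 2655), and the light chain Ftl1 had rank 4 at 6102 ± 657 FPKM. Beta-actin, Actb, had rank 3 at 7316 ± 1219 FPKM and the actin-binding peptide Tmsb4x rank 8 at 2458 ± 315. Lysozyme, Lyz2, a bactericidal enzyme of myeloid cells, stood at 5055, 3300, 3313 and 4266 FPKM, rank 5. The 25 highest genes also held the calcium-binding protein S100a4 (2966 FPKM), the lysosomal proteases Ctsd (1762 FPKM) and Ctsb (1504 FPKM), the protease inhibitor Cst3 (1521 FPKM), the lysosomal glycoprotein Gpnmb (1591 FPKM) and the fatty acid carrier Fabp5 (1157 FPKM). Immune genes at this height were the signalling chains Fcer1g (1765 FPKM) and Tyrobp (1349 FPKM), the LPS co-receptor Cd14 (1128 FPKM) and the chemokines Ccl2 and Ccl3, described below. The ribosomal RNA row Rn18s, given above, had rank 7 and Spp1 rank 2. The remainder were translation and housekeeping genes: Eef1a1, Rpl10, Rplp0, Rplp1, Ppia, Aldoa and Vim lay between 1097 and 2087 FPKM. Ribosomal protein genes each have processed copies of near-identical sequence, so their levels are uncertain.

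The high rank of Spp1, the secreted matrix protein osteopontin, rests on 3 libraries. It stood at 13351, 415, 14735 and 9469 FPKM, with PBS 2 the lowest and a 35.5-fold range from the lowest to the highest library. The same replicate number was low in every other group: across the 5 groups, replicate 2 held 280 to 415 FPKM of Spp1, against 9364 to 13351 in replicate 1, 11636 to 15392 in replicate 3 and 5848 to 9469 in replicate 4. The mean was 9492 ± 6449 FPKM, close to PBS 4 and far from PBS 2.

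The pan-myeloid markers were nearly all present and high. Of 22 genes, 21 had a mean of at least 1 FPKM and 16 of at least 100 FPKM, and the median of the list was 198 FPKM (199.7 without PBS 1), against 0.850 FPKM for all genes. Itgam, which encodes CD11b itself, the antigen used for the capture, was at 14.9, 36.7, 42.9 and 38 FPKM, lowest in PBS 1. Ptprc, the leukocyte phosphatase CD45, held 115, 111, 106 and 111 FPKM and hardly differed between libraries. Aif1, the actin-bundling protein IBA1, stood at 324 ± 44.1 FPKM and Cd68, a lysosomal membrane protein, at 332 ± 17.6. The complement subunits were lower, with C1qb at 55.2 ± 14.7 FPKM, C1qc at 19.6 ± 7.12 and C1qa at 10.3 ± 2.95. Cd52 was the exception at 0, 0.167, 0 and 0 FPKM, which is 1 read in 1 library.

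The microglial identity genes split into an abundant and a scarce set. Of 28 with a row, 23 reached a mean of 1 FPKM and 7 of 100 FPKM, and the median was 21 FPKM (23.9 without PBS 1). Csf1r, the growth factor receptor on which microglia depend, was at 425, 596, 487 and 540.3 FPKM (512 ± 73.2), rank 90. Trem2, a lipid receptor that signals through Tyrobp, was at 111, 104, 80.00 and 158 FPKM (113 ± 32.6). The range of Trem2 overlapped those of Rgs10 (115 ± 12.8 FPKM), a brake on G-protein signalling, and Ly86 (135 ± 23.5 FPKM).

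Genes that define homeostatic microglia were lower and reached different depths. The fractalkine receptor Cx3cr1 was at 39.3, 96.1, 62.9 and 76.6 FPKM (68.7 ± 23.9, 78.5 without PBS 1). Tmem119, a membrane protein used to tell microglia from other macrophages, was at 14.5, 22.9, 19.7 and 19.1 FPKM (19.1 ± 3.45), and Gpr34, a lysophospholipid receptor, at 17.4, 31.2, 36.2 and 36.5 FPKM. Tmem119 rested on 301, 557, 267 and 312 reads. The purine receptor P2ry12, which directs process movement toward ATP, was at 4.51, 3.7, 3.7 and 5.84 FPKM (4.44 ± 1.01), from 54, 52, 29 and 55 reads. The related receptor P2ry13 was at 2.79, 3.26, 2.21 and 1.58 FPKM, and the transcriptional repressor Sall1 at 1.16, 1.6, 1.99 and 0.986 FPKM (1.44 ± 0.453), from 57, 92, 64 and 38 reads.

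P2ry12 was higher than P2ry13 and Sall1 in all 4 libraries, and P2ry13 was higher than Sall1 in all 4, although their ranges overlapped. Tmem119 exceeded P2ry12 in each library, by 3.22 to 6.18-fold. Between these groups lay Selplg (53.8 FPKM), Tgfbr1 (41.4 FPKM; 49.9 without PBS 1), Fcrl2, listed under its older symbol Fcrls (32.6 FPKM), Slco2b1 (23 FPKM), Bin1 (16.8 FPKM), Pros1 (10.3 FPKM), Sparc (7.17 FPKM), Mertk (5.12 FPKM) and Entpd1 (3.14 FPKM). Olfml3, Slc2a5, Lag3 and Ltc4s were between 0.0983 and 0.237 FPKM, a handful of reads, and Crybb1 was listed at 0 in all 4 libraries.

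**Figure D2:**
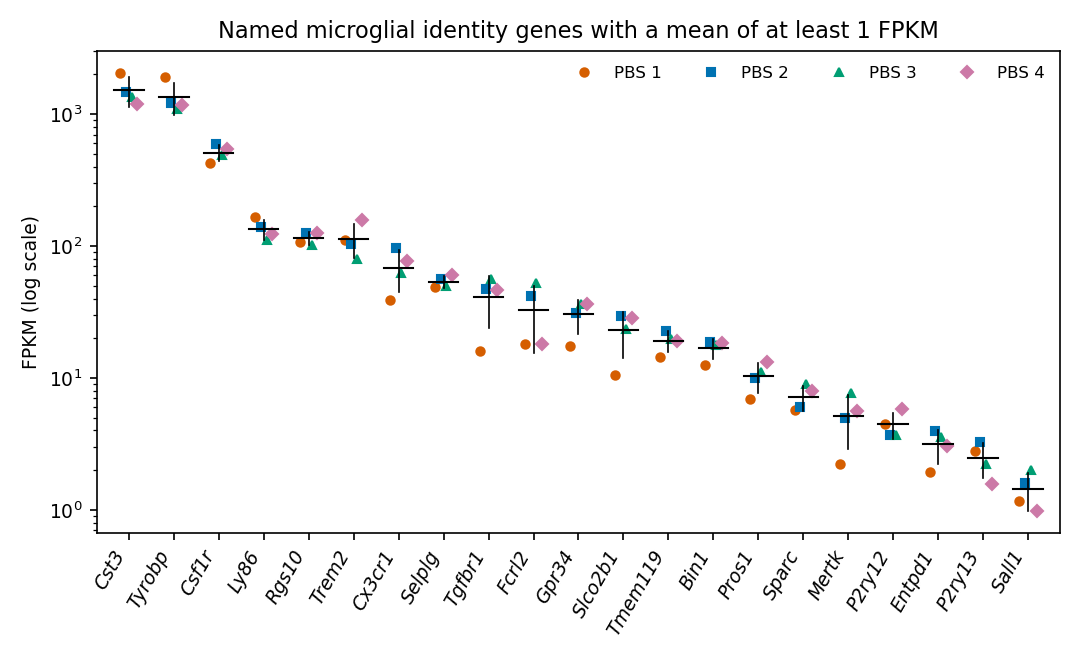
FPKM (log axis) of the microglial identity genes given by name with a mean of at least 1 FPKM; coloured symbols are the 4 PBS libraries, the horizontal bar is their mean and the vertical line 1 SD on either side. The order runs from Cst3 at 1521 FPKM to Sall1 at 1.44 FPKM, and PBS 1 is the lowest library for long transcripts such as Tgfbr1 and Slco2b1.

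Promoters of the myeloid genes were searched for the word GAGGAAGT, the core to which PU.1 binds, on both strands, since Spi1 was itself abundant. RefSeq promoter windows of assembly GRCr8, from 250 bases before to 50 bases after the annotated start, were available for 16 pan-myeloid and 19 identity genes with a single window. The word stood in 3 of 16 pan-myeloid windows, those of Ctss, Cd53 and Fcgr3a, in 0 of 19 identity windows, and in 592 of all 24206 single windows (2.45%). The 150 bases before the start of the cathepsin gene Ctss (224 FPKM; chr2:185775246-185775395, plus strand) and of the tetraspanin gene Cd53 (250.1 FPKM; chr2:197087897-197088046, minus strand) are shown as examples, 5′ to 3′ on the gene's strand, with the word, here as its reverse complement, in capitals:
Ctss: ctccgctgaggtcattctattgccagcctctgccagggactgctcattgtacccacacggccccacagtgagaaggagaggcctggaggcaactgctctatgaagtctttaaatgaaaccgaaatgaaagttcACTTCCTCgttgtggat
Cd53: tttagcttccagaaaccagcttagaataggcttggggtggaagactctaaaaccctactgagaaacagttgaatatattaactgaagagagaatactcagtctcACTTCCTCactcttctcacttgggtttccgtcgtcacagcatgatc
In Ctss the word begins 17 bases and in Cd53 46 bases before the start. A shorter word of the same factor family, GGAAGT, was in 9 of 16 pan-myeloid and 3 of 19 identity windows, against 31.1% of windows of genes at 1 FPKM or more and 22.8% of all. It also stood in 10 of 19 chemokine windows and 6 of 14 windows of interferon-induced genes. These matches describe the letters of the windows only.

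Markers of other cell types were few and mostly listed at 0. At least 1 FPKM was reached by 1 of 12 astrocyte genes (Slc1a3, 2.67 FPKM), 1 of 14 neuronal genes (Tubb3, 3.54 FPKM) and 0 of 12 pericyte and fibroblast genes. The defining genes Gfap, Aqp4, Rbfox3, Syt1, Col1a1 and Acta2 were listed at 0 in all 4 libraries, and the summed level lay between 1.71 and 4.72 FPKM for the astrocyte list, 2.91 and 6.59 for the neuronal list and 0.0243 and 0.241 for the pericyte and fibroblast list. The oligodendrocyte list had 3 of 15 genes at 1 FPKM or more, led by Cnp (23.7 FPKM) and Mbp (8.62 FPKM), with Mog, Mag and Sox10 listed at 0 and a sum of 26 to 44 FPKM. Lymphocyte genes reached it in 2 of 14, with Lck at 5.49 FPKM and Cd3e listed at 0 (sum 6.88 to 10.3 FPKM). Blood monocyte and neutrophil genes reached it in 2 of 14, with Itgal at 6.95 FPKM (sum 7.01 to 13.2 FPKM). The neutrophil genes S100a8 and S100a9 were each above 0 in 1 library, at 0, 0, 0 and 1.49 and 0.429, 0, 0 and 0 FPKM, and Mpo and Elane were listed at 0.

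The endothelial list was the least clear. 7 of 11 genes were above 1 FPKM in all 4 libraries, with the angiopoietin receptors Tie1 and Tek at 13.8 ± 3.62 and 8.11 ± 2.97 FPKM, Esam at 8.72 ± 4.86, Flt1 at 7.58 ± 2.88 and Cdh5, the cadherin of endothelial junctions, at 4.97 ± 2.36. Yet the claudin Cldn5, the growth factor receptor Kdr and Emcn were listed at 0 in all 4, and Vwf was at 0.108 ± 0.0587 FPKM. The summed level of the list was 27.9 FPKM in the lowest library and 63.6 FPKM in the highest, against 9526 to 12113 FPKM for pan-myeloid genes. The part of endothelial cells in these levels was not tested. Genes of border-associated macrophages, the macrophages of the meninges and perivascular spaces, were above 1 FPKM in 5 of 10, close to the 49.2% of all genes. They were the folate receptor Folr2 at 48, 39.1, 60.4 and 49.9 FPKM, the platelet chemokine Pf4 at 16.4, 14.6, 17.6 and 32.6, Lyve1 at 3.63, 11.5, 10.4 and 6.9, the mannose receptor Mrc1 at 1.56, 4.36, 8.48 and 5.36 and Cd36 at 2.21, while Cd163 was listed at 0.

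**Figure D3:**
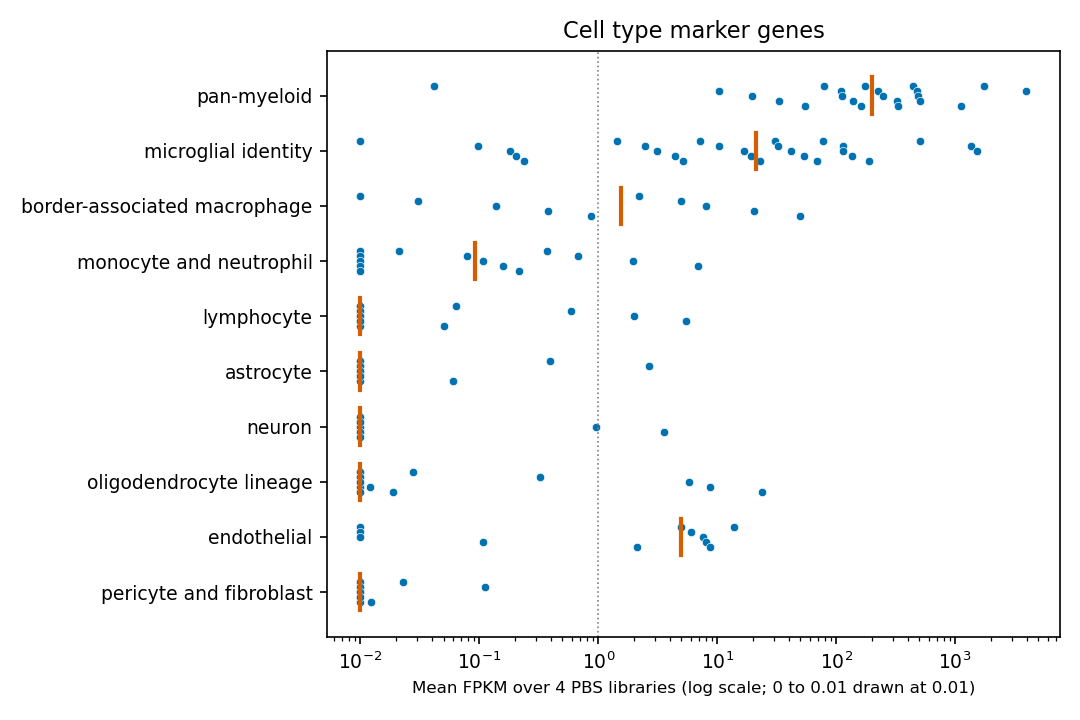
Mean FPKM over the 4 PBS libraries (log axis) of each marker gene, 1 point per gene and 1 row per cell type list; the orange bar is the list's median, the dotted line is 1 FPKM, and values of 0 to 0.01 are drawn at 0.01. The pan-myeloid median is 198 FPKM and the microglial identity median 21 FPKM, and the medians of the astrocyte, neuron, oligodendrocyte, lymphocyte and pericyte lists are 0.

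Transcription factors of the myeloid lineage were present at moderate levels. Of 36, 30 had a mean of at least 1 FPKM, with a median of 8.74 FPKM, whereas 1 of 21 factors of other lineages did (Lef1, 1.66 FPKM). Spi1, the master regulator PU.1, was at 170.4, 189, 155 and 178 FPKM (173 ± 14.2), the highest of the list in every library. It was followed by Cebpb at 80.5, 79.3, 54.7 and 82.6 FPKM, a factor of macrophage activation, Lmo2 at 71.1, 67, 43.1 and 48.8, a haematopoietic adaptor, and Irf8 at 27.6, 56.4, 35.5 and 41.7, the partner of PU.1 in microglial development. Cebpb was above Lmo2 and Lmo2 above Irf8 in each of the 4 libraries, although their ranges overlapped in part. Fli1 (33.8 FPKM), Mef2a (31.2 FPKM), Lyl1 (30.8 FPKM), Cebpa (16.9 FPKM) and Runx1 (10.8 FPKM) were lower. Maf was at 2.15, 0.595, 0.82 and 0.41 FPKM, and Gfi1 and Ikzf3 were listed at 0.

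Over all lists of factors, Ier3 (277 ± 68.1 FPKM), an immediate early gene whose product is not itself a DNA-binding factor, and Atf4 (248 ± 18.8 FPKM), the effector of the integrated stress response, stood above Spi1. Irf7 (128 ± 20.7 FPKM), Cebpb, Klf6 (73.3 ± 10.2 FPKM), Irf5 (59.6 ± 8.02 FPKM), Lmo2, Atf3 (55.1 ± 16.8 FPKM) and Junb (50.2 ± 5.87 FPKM) completed the 10 highest. IRF and STAT factors reached 1 FPKM in 14 of 16 genes and immediate early genes in 20 of 24. Among the latter, Fos (3.71 ± 0.791 FPKM), Egr1 (4.3 ± 1.64 FPKM) and Fosb (0.0149 FPKM) were low. Ier3, Klf6, Atf3 and Junb are on the same list, and 10 of its 24 genes reached 10 FPKM. Of the nuclear receptors, 12 of 24 reached 1 FPKM, close to the 49.2% of all genes. They were headed by the oxysterol receptor Nr1h2 (35.9 ± 4.05 FPKM) and the glucocorticoid receptor Nr3c1 (6.92 ± 0.907 FPKM).

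Cell division genes were detected throughout. All 27 genes of DNA replication and all 26 of mitosis were above 1 FPKM in each of the 4 libraries, with medians of 24.5 and 17.2 FPKM (25.3 and 19 without PBS 1), against 49.2% of all genes at 1 FPKM or more. Pcna, the sliding clamp of the replication fork, was at 144, 138, 133 and 122 FPKM (134 ± 9.19), and Rrm2, the inducible subunit of ribonucleotide reductase, at 85.5, 122, 120.0 and 106 FPKM. The helicase subunits Mcm2 to Mcm7 that the list holds lay between 21 and 30.2 FPKM.

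Among mitotic genes, Ube2c, which feeds the anaphase-promoting complex, was at 196, 180.0, 149.5 and 113 FPKM, the kinase Cdk1 at 65.6, 82.4, 68.7 and 55.9, and cyclin A, Ccna2, at 46.6, 58.9, 51.8 and 43.7. Mki67, the proliferation antigen Ki-67, was at 14.8, 16.7, 12.7 and 9.88 FPKM and topoisomerase Top2a at 7.26, 16.8, 13.8 and 13. PBS 4 was the lowest library for Ube2c, Cdk1, Ccna2 and Mki67, and PBS 1 for Top2a. Ccnd1, the cyclin that carries growth factor signals into G1, was at 196, 232, 187 and 223 FPKM (209 ± 21.5) and its kinase Cdk4 at 85.6 ± 7.99. Rb1, the retinoblastoma protein, was listed at 0 in all 4 libraries, a value that can also stand for a failed estimate. Of 13 G1 genes 12 reached 1 FPKM, and of 11 inhibitors 10 did, with Btg1 at 139 ± 9.56 FPKM, Cdkn1a (p21) at 67.4 ± 10.4 and Cdkn2a at 1.4 ± 0.601. These data do not tell the share of cells that were dividing.

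Promoters of replication genes were searched for E2F words. E2F is the factor family released at the G1 to S transition, and the words TTTGGCGC, TTTCCCGC, TTTGCCGC and TTTCGCGC were searched on both strands. At least 1 of them stood in 13 of 21 replication windows, 1 of 22 mitosis windows, 292 of 6370 windows of genes at 1 FPKM or more (4.58%) and 552 of all 24206 (2.28%). Mcm5 (17.2, 37.5, 28.5 and 26 FPKM; chr19:13488663-13488812, plus strand), a helicase subunit, and Tyms (17.3, 23.3, 26.6 and 20.7 FPKM; chr9:120776084-120776233, minus strand), the thymidylate synthase, are shown over the 150 bases before their start, with the word in capitals:
Mcm5: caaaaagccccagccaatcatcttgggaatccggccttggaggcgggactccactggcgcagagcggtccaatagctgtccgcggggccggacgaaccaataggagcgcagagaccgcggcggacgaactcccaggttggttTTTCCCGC
Tyms: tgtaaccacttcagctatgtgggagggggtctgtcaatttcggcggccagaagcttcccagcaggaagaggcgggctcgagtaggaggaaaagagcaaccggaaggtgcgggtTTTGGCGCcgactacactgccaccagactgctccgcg
The word ends at the start of Mcm5 and begins 37 bases before that of Tyms. A window with no match lacks these letters, which says nothing of the factor.

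A few chemokine genes were among the most abundant transcripts of the unstimulated cells, while the list as a whole was close to the background. Its median was 1.1 FPKM, against 0.850 for all genes. 14 of 25 had a mean of at least 1 FPKM (13 without PBS 1), against 49.2% of all genes, 6 of at least 100 FPKM and 4 were listed at 0 in all 4 libraries. Ccl2, the main attractant of monocytes, was at 1988, 1686, 1231 and 2805 FPKM (1927 ± 662), rank 11 of all genes. Its relatives Ccl12 and Ccl7, ligands of the same receptor, were at 579.9, 1032, 471 and 1160 and 699, 636, 482 and 1250 FPKM. PBS 4 was the highest and PBS 3 the lowest library for all 3.

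The macrophage inflammatory proteins Ccl3 and Ccl4 were at 1460, 1183, 874 and 1328 FPKM (1211 ± 252) and 608, 393, 252 and 424 FPKM (419 ± 146), highest in PBS 1 and lowest in PBS 3. Cxcl16 was at 205 ± 37.4 FPKM and the interferon-inducible Cxcl10 at 112, 109.9, 45.9 and 73.8. The neutrophil attractants were far lower, with Cxcl1 at 24.8, 18.1, 9.75 and 35.5 FPKM, Cxcl2 at 5.78, 6.54, 1.45 and 12.6 and Cxcl3 at 0.325 FPKM. Ccl6 was at 41.5, 68, 16 and 77.9 FPKM. Ccl5 was at 0, 1.73, 0.562 and 2.11 FPKM, from 0, 11, 2 and 9 reads, and Ccl17, Ccl20, Cxcl9 and Xcl1 were listed at 0. The summed level of the list was 3590 FPKM in PBS 3, the lowest library, and 7381 FPKM in PBS 4, the highest.

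Cytokine genes ranged from abundant interleukin 1 family members, through intermediate genes such as Tnf, to barely detected ones. Of 28, 15 had a mean of at least 1 FPKM, close to the 49.2% of all genes, and the median was 1.27 FPKM, against 0.850 for all genes. Il1b was at 208, 271, 193 and 268 FPKM (235 ± 40.3), Il18 at 102, 99.8, 85.6 and 113 and the receptor antagonist Il1rn at 95.1, 86.3, 109 and 79.6, so that Il1b exceeded Il1rn in every library, by 1.78 to 3.37-fold, while Il18 and Il1rn overlapped. Il1a was at 41.3, 33.2, 25.7 and 88.4 FPKM, highest in PBS 4. Tnf was at 58.9, 52.3, 34.9 and 46.8 FPKM (48.2 ± 10.2), Tnfsf9 at 35.2 ± 4.18, Il6 at 23.8, 14.4, 13 and 33.6, Osm at 13.1 ± 4.33 and Tgfb1, the cytokine that maintains microglial identity, at 10.05, 8.56, 4.49 and 6.2.

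At the other end, the anti-inflammatory Il10 was at 0.307, 0.392, 1.17 and 0.39 FPKM, from 2, 3, 5 and 2 reads, and interferon beta, Ifnb1, at 0.754, 0.321, 0.863 and 0.718 FPKM, from 4, 2, 3 and 3 reads. Il12b, Ifng and Ifna1 were listed at 0 in all 4 libraries, and Csf2 and Il23a were at 0.338 and 0.697 FPKM.

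**Figure D4:**
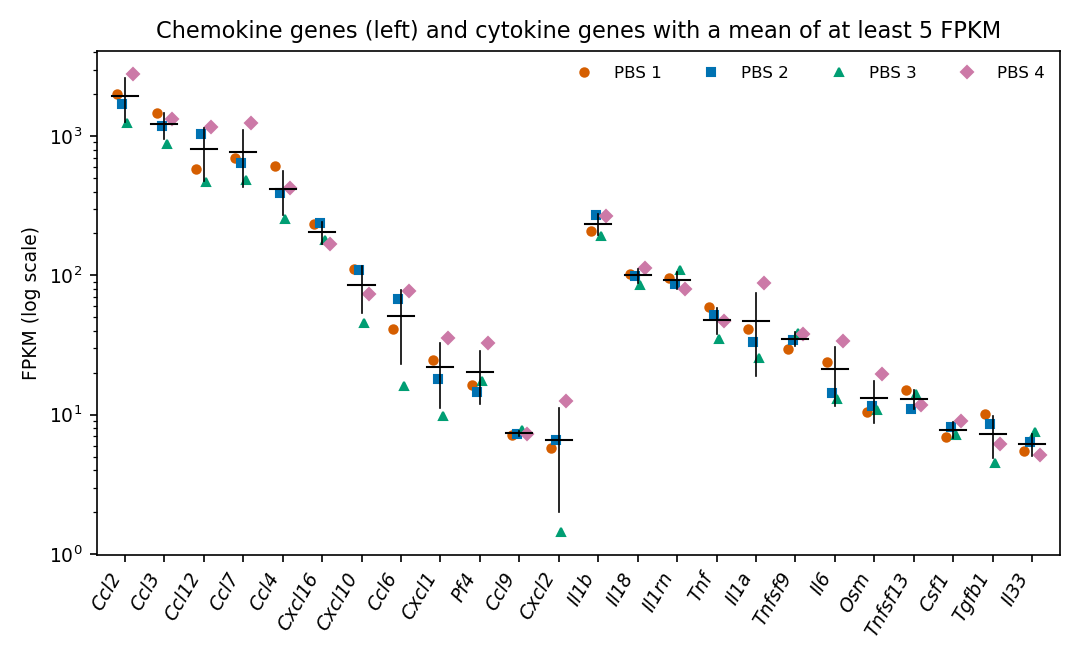
FPKM (log axis) of chemokine genes, on the left, and cytokine genes, on the right, with a mean of at least 5 FPKM; coloured symbols are the 4 PBS libraries, the horizontal bar is their mean and the vertical line 1 SD on either side. Ccl2 leads at 1927 FPKM and Il1b leads the cytokines at 235 FPKM, and PBS 3 is the lowest library for most chemokines.

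The word TATAAA, the box that positions the start of strongly inducible genes, was read on the gene's strand in the same windows. It stood in 9 of 19 chemokine and 6 of 20 cytokine windows, against 250 of 6370 windows of genes at 1 FPKM or more (3.92%) and 2238 of all 24206 (9.25%). On either strand it stood in 9 of 19, 7 of 20 and 14.3% of all windows. The windows of Ccl7 (chr10:67513945-67514094, plus strand), Ccl12 (chr10:67567726-67567875, plus strand) and Il1b (chr3:137036582-137036731, minus strand) are shown as the 150 bases before the start, with the word in capitals:
Ccl7: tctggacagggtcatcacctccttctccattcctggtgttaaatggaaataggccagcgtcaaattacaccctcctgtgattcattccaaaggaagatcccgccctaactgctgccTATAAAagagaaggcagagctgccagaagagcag
Ccl12: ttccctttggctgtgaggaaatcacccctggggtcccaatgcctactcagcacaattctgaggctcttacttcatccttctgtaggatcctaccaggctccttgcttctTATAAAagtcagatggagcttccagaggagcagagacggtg
Il1b: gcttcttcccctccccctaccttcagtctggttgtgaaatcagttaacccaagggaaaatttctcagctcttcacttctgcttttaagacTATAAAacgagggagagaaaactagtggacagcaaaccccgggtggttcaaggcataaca
The word begins 34, 41 and 60 bases before the start of Ccl7, Ccl12 and Il1b. The NF-kB word (GGGAC joined to TTTCC, both strands) was in 0 of 19 chemokine and 0 of 20 cytokine windows and in 0.0909% of all, and the AP-1 word TGACTCA in 3 of 19, 2 of 20 and 4.53%.

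The enzymes of inflammation also ranged from abundant to barely detected. Of 27, 21 reached 1 FPKM. Heme oxygenase, Hmox1, was at 632, 536, 592 and 967 FPKM, highest in PBS 4, and cholesterol 25-hydroxylase, Ch25h, at 550.5, 577, 428 and 659. The superoxide-producing NADPH oxidase was represented by Cyba (485 ± 75.1 FPKM), Cybb (163 ± 34.9 FPKM) and Ncf4 (107 ± 17.6 FPKM), and its counterpart, the dismutase Sod2, was at 271 ± 33.5. The inflammasome genes Pycard, Casp1 and Nlrp3 were at 80.2 ± 23.1, 45.6 ± 3.53 and 27.8 ± 11.8 FPKM. Inducible nitric oxide synthase, Nos2, was at 0.519, 1.08, 0.319 and 1.66 FPKM, the inducible cyclooxygenase Ptgs2 at 1.21, 1.23, 1.23 and 3.37 and arginase, Arg1, at 0.0695, 0.592, 0.424 and 0.177, while the constitutive cyclooxygenase Ptgs1 was at 82.8 ± 18.6. All 18 NF-kB factors and feedback genes were above 1 FPKM in every library, with the inhibitor Nfkbia at 77.1, 66.2, 65.1 and 70.8 FPKM and the subunit Rela at 30.4, 39.5, 30.4 and 32.3.

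Interferon-induced genes were detected throughout, while Ifnb1 and Ifna1 were near or at 0. All 21 members were above 1 FPKM in each library, with a median of 30.2 FPKM (34.1 without PBS 1). Ifi27 was at 285, 348, 281 and 377 FPKM, the ubiquitin-like modifier Isg15 at 213, 142, 109 and 149.9 and Oasl at 137 ± 22.8. The factor Irf7, which amplifies interferon production, was at 103, 143, 119 and 148 FPKM, the antiviral gene Rsad2 at 44.9, 63.9, 36.8 and 87.8 and Mx1 at 27.3, 70.1, 43.3 and 77.5. PBS 4 was the highest library for Ifi27, Irf7, Rsad2 and Mx1, and PBS 1 for Isg15.

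The interferon response element (GAAA, any 2 bases, GAAA) was in 11 of 14 windows of these genes on either strand, against 905 of all 24206 (3.74%) and 198 of 6370 windows of genes at 1 FPKM or more (3.11%). It was also in 4 of 16 pan-myeloid windows, Ctss among them, and in 0 of 19 identity windows. Irf7 (chr1:205800024-205800173, minus strand) and Ifit3 (61.3, 71.4, 61.6 and 93.4 FPKM; chr1:241527176-241527325, plus strand) carry it as its reverse complement within the 150 bases before the start, in capitals:
Irf7: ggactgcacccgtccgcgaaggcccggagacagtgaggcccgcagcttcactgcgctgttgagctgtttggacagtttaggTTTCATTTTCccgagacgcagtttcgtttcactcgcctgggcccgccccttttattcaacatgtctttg
Ifit3: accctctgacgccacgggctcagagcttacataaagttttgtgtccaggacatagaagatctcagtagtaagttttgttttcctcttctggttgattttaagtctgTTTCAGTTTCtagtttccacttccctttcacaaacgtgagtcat
It begins 69 bases before the start of Irf7 and 44 bases before that of Ifit3. Of the 10 word searches made, only that for PU.1 was planned; the other 9 were chosen after the levels and the first matches had been seen, and those with the largest shares are the ones shown.

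Among receptors, the signalling chains Fcer1g (2377, 1605, 1540 and 1536 FPKM) and Tyrobp (1901, 1213, 1102 and 1178 FPKM) were the highest, followed by Cd14 (1080, 1288, 799.9 and 1345 FPKM), Csf1r and the complement C5a receptor C5ar1 (326, 383, 274 and 396 FPKM). Cd68, the scavenger receptor Msr1 (261 ± 52.8 FPKM), the IgG receptors Fcgr2a (224 ± 11.6 FPKM) and Fcgr1a (222 ± 29.3 FPKM) and Sirpa (145 ± 37.4 FPKM), which reads the signal CD47 on healthy cells, completed the 10 highest. Fcer1g and Tyrobp, both short genes, were higher in PBS 1 than in any other library, with means of 1561 and 1164 FPKM without it.

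Fc and complement receptors reached 1 FPKM in 11 of 15 genes, phagocytic and scavenger receptors in 22 of 28 and chemoattractant receptors in 11 of 21. The share of all genes was 49.2%, to which the last of these was close. In the last list Ccr7, the receptor that leads cells to lymph nodes, was listed at 0.

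Toll-like receptors and their adaptors reached 1 FPKM in 18 of 23 genes. Tlr2, which senses lipoproteins, was at 87.8, 144, 142 and 170.0 FPKM (136 ± 34.5), and Tlr4, the LPS receptor, at 6.92, 14.5, 16.4 and 16.9 FPKM (13.7 ± 4.62). Tlr2 exceeded Tlr4 by 8.64 to 12.7-fold in the 4 libraries. The endosomal chaperone Unc93b1 was at 90.1 ± 14.1 FPKM, Tlr7 at 24.2 ± 9.62, Tlr6 at 9.43 ± 2.5, Tlr3 at 7.93 ± 1.5 and Tlr1 at 1.65 ± 0.57, and Clec7a, dectin-1, was at 3.81 ± 0.778. Ly96, the MD-2 subunit through which TLR4 holds LPS, and Lbp were listed at 0 in all 4 libraries.

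Of 14 genes of class II antigen presentation and co-stimulation, 7 reached 1 FPKM, close to the 49.2% of all genes. Cd74, the invariant chain, was at 6.36, 3.12, 2.26 and 2.21 FPKM, from 73, 42, 17 and 20 reads, RT1-Da at 0.263, 0, 0 and 0, and RT1-Bb and the transactivator Ciita were listed at 0, whereas the endosomal reductase Ifi30 was at 382 ± 28.9 FPKM and the exchange factor RT1-DMa at 75 ± 10.6. RT1 genes belong to a family in which some members are closely similar, so these levels are uncertain. The co-stimulatory genes Cd86 and Cd40 were at 59.2 ± 6.37 and 29.8 ± 9.27 FPKM.

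Cytokine and growth factor receptors reached 1 FPKM in 29 of 37, with the TGF-beta receptor Tgfbr2 (59.8 ± 21.6 FPKM), Ifngr1 (55.2 ± 5.9 FPKM), Csf2ra (48 ± 5.11 FPKM) and Ifnar1 (42.4 ± 9.39 FPKM) after Csf1r, and the interleukin 1 receptor Il1r1 at 0.0375 FPKM. Purinergic genes reached it in 11 of 17. Of these, P2rx4 at 26.2, 32.3, 82.9 and 41.6 FPKM and P2ry6, which triggers phagocytosis, at 19, 24.5, 33.4 and 33.1 were above P2ry12 in every library, and P2rx7 was at 1.03, 1.83, 4.45 and 1.74 FPKM. PBS 3 held the highest value of both P2rx4 and P2rx7.

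The series includes morphine, and the receptors for opioids and transmitters were nearly absent from the table's values. Of 29, 3 reached 1 FPKM, among them Ogfr, a nuclear envelope protein that binds an enkephalin and is unrelated to the classical opioid receptors, at 22.1, 33.7, 25.4 and 31.7 FPKM, and the cannabinoid receptor Cnr2 at 5.49, 11.3, 10.03 and 12.2. The mu receptor Oprm1, the kappa receptor Oprk1 and Oprl1 were listed at 0 in all 4 libraries, and the delta receptor Oprd1 was at 0, 0, 0.113 and 0 FPKM. A level listed at 0 does not show that the transcript was absent.

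Many genes listed for the state that microglia take up around lesions and in disease were among the most abundant of all, and others were low. The list shares Cd68 with the pan-myeloid list and Trem2 and Tyrobp with the identity list, so its height is not particular to that state. Of 23 disease-associated genes, 22 reached 1 FPKM and 16 reached 100 FPKM, with a median of 526 FPKM (628 without PBS 1). Beside Fth1, Spp1, Ctsd and Gpnmb, the galectin Lgals3 was at 1078 ± 233 FPKM, Cd63 at 1057 ± 137 and lipoprotein lipase, Lpl, at 222, 480.3, 761 and 642, lowest in PBS 1. The lower members included the growth factor Igf1 at 39.6, 22.8, 44.7 and 50.3 FPKM and Apoe, the lipid carrier, at 30.8, 40.9, 34.3 and 30.2. Axl was at 20.9 ± 11.5 FPKM, Clec7a at 3.81 and Cst7 at 0.88, and Itgax had no row.

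Metabolic and structural lists were also high. All 25 actin and motility genes were above 1 FPKM in every library, with a median of 444 FPKM, Arpc1b at 800.0 ± 54.3 and Pfn1 at 736 ± 126. Of 20 glycolysis genes, 17 reached 1 FPKM, led by Aldoa (1196 ± 64.2 FPKM), Gapdh (1078 ± 14.5 FPKM) and Eno1 (813 ± 49.6 FPKM), and of 28 lipid and sterol genes 27 did, led by Fabp5, Fabp4 (758 ± 162 FPKM) and Lpl. Iron genes reached it in 14 of 15, with the phagosomal transporter Slc11a1 at 153 ± 18.1 FPKM. Trophic and matrix factors reached it in 18 of 29: Grn (progranulin) was at 1086 ± 121 FPKM and Psap at 369.6 ± 86, while Bdnf and Gdnf were listed at 0 in all 4 libraries. Stress genes reached it in 19 of 20. The chaperones Hsp90ab1 and Hspa5 were at 418 ± 31.1 and 348 ± 78.3 FPKM. Hspa1a, induced by heat and dissociation, was at 0.275 ± 0.166 FPKM. Hspa1b, a copy of near-identical sequence, was among the 19, so the level of Hspa1a is uncertain.

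The genes that differed least between libraries, among 2807 with a mean of at least 20 FPKM, included Snx3, Nfkbib, Mtx1, Emd, Tagln2, Cops7a, Gapdh, Idh3b and Vdac2, with coefficients of variation of 1.02% to 1.68%. Counting of estimated reads alone would give a median of 3.53% at 20 to 100 FPKM and 2.07% at 100 FPKM or more. Coefficients below these can arise by chance as the lowest of 2807 genes, so they do not show stable expression. Gapdh was at 1080, 1097, 1074 and 1062 FPKM. Those that differed most included Rpl37a-ps1, LOC257642, Lgals1, Rn28s, Rn18s, LOC310926, Anpep, Ybx3 and Angptl2, with 70.1% to 115% (at these levels ribosomal RNA and pseudogene rows are uncertain). The galectin Lgals1 was at 240.2, 23.1, 140.3 and 31.5 FPKM.

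Some of these patterns returned under the same replicate number in the other groups. Deviations of log2 values from the group mean, over 6196 genes, had a median r of 0.61 between same-numbered libraries of 2 groups (40 pairs, 34 of them over 0.1) and of -0.35 between differently numbered ones (120 pairs, 49 over 0.1). Deviations from a mean of 4 sum to 0, so a positive value for the same number makes the other negative on average. Lgals1 was at 240.2 to 381 FPKM in replicate 1 and at 128 to 174 in replicate 3 across the 5 groups, but at 23.1 to 69.1 in replicate 2 and 31.0 to 64.6 in replicate 4. Lgals1, and Msn and Pld4 below, were singled out after their values had been seen.

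At a distance of at least 4-fold from each of the other 3 libraries, 36 of 6196 genes had 1 PBS library apart, 23 of them lower in PBS 1, and 4 did so under the same number in all 4 other groups: Spp1 (replicate 2), Ldhb and Milr1 (replicate 4) and RT1-CE11 (replicate 1). At 3-fold the counts were 100, 83 and 5, with Fam111a (replicate 4) added. The low levels of PBS 1 nevertheless returned in other groups, where a second library often shared them: replicate 1 was at least 4-fold below the highest library of its group in all 5 groups for 12 of the 23 genes, and at least 3-fold for 55 of the 83. Replicate 2 was low in the same way for 68 of the 83 in the morphine group and 70 in the LPS group, but for 1 each in the PAM3CSK4 and zymosan groups. Msn, the membrane linker moesin, shows this: replicate 1 held 55.7 to 103 FPKM across the 5 groups, and replicate 2 held 65 and 79.4 FPKM with morphine and LPS but 319 to 404 in the other 3 groups. Ldhb, a lactate dehydrogenase subunit, was at 17.4, 19.98, 14.6 and 2.18 FPKM, and Milr1, an inhibitory receptor, at 12.7, 6.9, 5.94 and 1.22. Fam111a was at 57, 86.9, 78.1 and 14.2 FPKM and RT1-CE11 at 0, 26, 13.5 and 31.1, listed at 0 in replicate 1 of all 5 groups. Pld4, a lysosomal exonuclease, was at 157, 203, 147 and 40.02 FPKM, likewise low in PBS 4. The labels do not state what the replicate number marks.

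**Figure D5:**
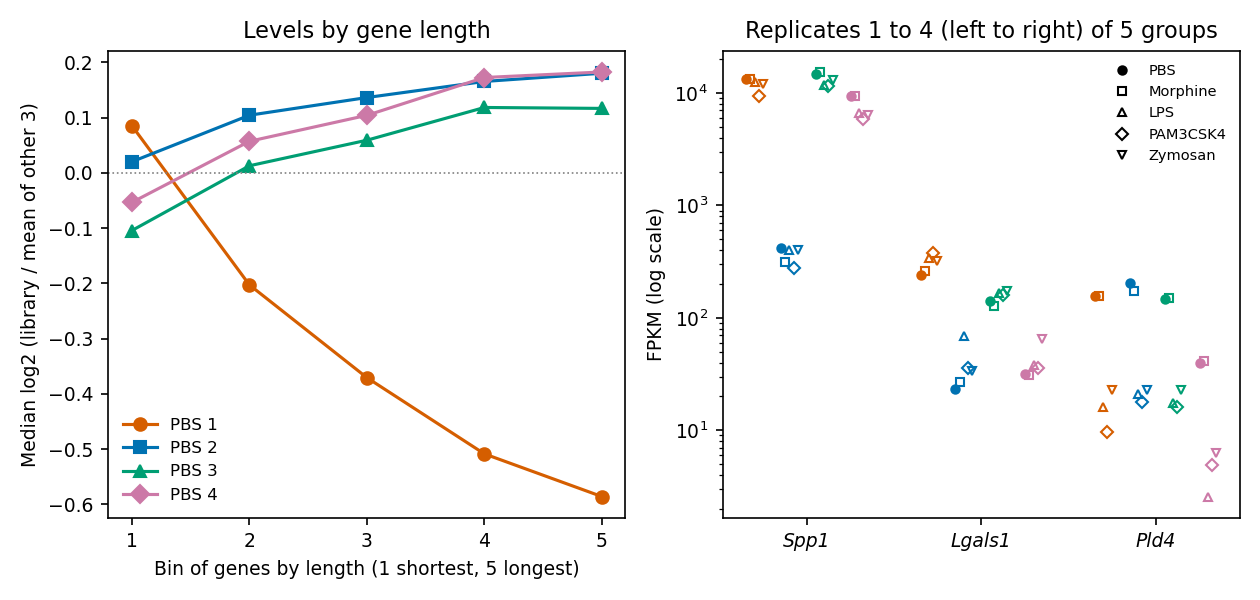
Left, median log2 ratio of each PBS library to the mean of the other 3, by bin of 5 in order of transcript length as estimated from the value of 1 step, which divided reads can distort. The line of PBS 1 falls from 0.09 to -0.59. Right, FPKM (log axis) of Spp1, Lgals1 and Pld4 in replicates 1 to 4, from left to right within each gene and in the colours of the left panel, with filled symbols for PBS and open ones for the other groups; the 5 replicate 2 libraries of Spp1 lie at 280 to 415 FPKM.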

How the data were processed

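RNA from 4 PBS libraries of cultured rat microglia was analysed; the other 16 libraries were used only for the depth steps and the replicate numbers. The authors deposited 1 table of FPKM values without counts. HISAT2 2.0.5.1, Cufflinks 2.2.1, featureCounts 1.4.6, DESeq2 and build rn6 are named, without roles, per the submitters' processing notes; which annotation was used is not given in these sources. Smart-Seq2 marks no strand, so antisense and overlapping genes cannot be told apart.

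Levels were described by mean, SD and rank in Python 3.11.15 (pandas 2.3.3, numpy 2.4.6, scipy 1.17.1, matplotlib 3.10.9), with a threshold of 1 FPKM; no difference was tested, because 1 group is described, and Dixon's criterion served only to pick out libraries for the closing section. Low FPKM values that were whole multiples of a smallest step gave relative depth and reads, solved for 9955 of 10997 genes above 0 in at least 4 libraries (90.5%) but for 44.1% of those at 100 FPKM or more. In 2697 of 8597 genes (31.4%) the step was a fraction of the smallest whole-number solution for the 4 libraries, as when a read is divided between places. The smaller solution was used there. A divided read can still count as more than 1 step, so the estimates can lie below or above the true reads. In PBS 1, Pola1 has 882 estimated reads at 2.97 FPKM and Pcna 1595 at 144 FPKM. Intervals and floors of the reads would cover counting error only. The same code was tested on simulated reads.

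Genes were grouped in 39 lists of 771 symbols, of which 732 matched by symbol and 3 by synonym to the RefSeq table of GRCr8, and 36 had no row and were not analysed here. The members and lists were chosen with earlier results of these data known. Names were drawn from the 25 highest, the 3 to 6 highest of each list and those at 0, members of the identity, myeloid factor, cytokine, chemokine, Toll-like and opioid receptor lists, the 10 highest factors and receptors, and the 10 most and least variable genes of at least 20 FPKM; others were named for their known role after their values had been seen. Not every gene of these sets is named, and a few are not reported here. Alternatives were thresholds of 0.5 and 2 FPKM, the median over libraries, 2 rescalings, single zeros as missing, ribosomal RNA rows left out, and each library left out in turn. The 3-fold distance between libraries, the counts of replicates 1 and 2 in the other groups and all promoter words but that of PU.1 were added after seeing the data.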

Additional observations from a re-analysis of the deposited data

Results flagged for a closer look

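Of 309 quantities examined (268 named genes, the summed levels of 39 lists and 2 library totals), 24 had 1 library whose gap to the nearest of the other 3 divided by the whole range was above Dixon's 95% critical value for 4 samples. For 6 of these, genes listed at 0 in 3 libraries, the ratio is 1 by construction, and 37 genes at 0 in all 4 could not be picked out. Of the other 266 quantities 18 were, and chance gives about 1 in 20 such groups of 4. PBS 1 was the library apart in 8 cases as the lowest and in 5 as the highest, and PBS 4 in 6 as the highest. The number of genes at 1 FPKM or more was 8288 in PBS 1, lowest of the 4, with 8520 as the nearest. The summed level of the oligodendrocyte lineage list was 26 FPKM in PBS 1, lowest of the 4, with 41.9 as the nearest. The summed level of the non-myeloid lineage transcription factors list was 1.11 FPKM in PBS 1, lowest of the 4, with 2.04 as the nearest. PBS 1 was the highest library for Fcer1g (2377 FPKM, nearest 1605), Tyrobp (1901 FPKM, nearest 1213) and Rplp1 (1615 FPKM, nearest 992). PBS 1 was the lowest library for Runx1 (7.93 FPKM, nearest 11.5), Tlr7 (9.96 FPKM, nearest 27), Tlr6 (5.69 FPKM, nearest 10.4), Ifnar1 (28.4 FPKM, nearest 46.4) and Msn (93.3 FPKM, nearest 311). PBS 3 was the lowest library for Cebpb (54.7 FPKM, nearest 79.3). PBS 4 was the highest library for Pf4 (32.6 FPKM, nearest 17.6), Osm (19.6 FPKM, nearest 11.5) and Ptgs2 (3.37 FPKM, nearest 1.23). Among genes with a mean under 1 FPKM, where 1 library can differ by a few reads, Cd52 was at 0.167 FPKM in PBS 2 (nearest 0), Lag3 was at 0.712 FPKM in PBS 3 (nearest 0.0994), S100a8 was at 1.49 FPKM in PBS 4 (nearest 0), S100a9 was at 0.429 FPKM in PBS 1 (nearest 0), Il10 was at 1.17 FPKM in PBS 3 (nearest 0.392), RT1-Da was at 0.263 FPKM in PBS 1 (nearest 0), Il1r1 was at 0.15 FPKM in PBS 4 (nearest 0), Oprd1 was at 0.113 FPKM in PBS 3 (nearest 0) and Hspa1a was at 0.524 FPKM in PBS 4 (nearest 0.198).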

How the results depend on the processing

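No paired analysis was possible because 1 group is described and no comparison between groups is made. The number of genes at 1 FPKM or more, 8515, was 9019 at a threshold of 0.5 FPKM and 7802 at 2 FPKM, and 8506 to 8552 with 1 library left out. The share of the 100 highest genes, 33.9%, was 32.8 to 35% with 1 library left out. The count was highest, at 9219, with each library rescaled to a common sum. That sum is larger than those of the libraries, 357670 to 372339 FPKM, so a threshold of 1 is less strict there. The count stayed within 1.5 times its value under all alternatives run, and the share stayed within 1 SD. For the share, leaving out 1 library or taking the median cannot exceed that margin. Rescaling a library or treating single zeros as missing cannot change the share at all. Only leaving out the 5 ribosomal RNA rows could have failed this check for the share, and it gave 33.5%. Of 351 list percentiles (39 lists), 348 moved by no more than the SD between libraries. Lists with most members at 0 in all 4 libraries, such as the astrocyte list (9 of 12), cannot move from 0. Their values could not have failed this check. The exceptions were the monocyte and neutrophil list, whose median percentile of 42.3 became 0 with the median over libraries and 21.4 to 42.2 with 1 library left out, and the actin and motility list, at 99.3 and 99.3 to 99.4 with 1 library left out; the cause was not tested. All 2144 levels of named genes stayed within 1 SD, a wide margin for genes that vary. Leaving out 1 of 4 libraries, taking the median or treating a single zero as missing cannot move a mean further than that. For levels, only the 2 rescalings could have failed this check. By ratio, 4 with a mean of at least 1 FPKM moved by over 1.5 times when 1 library was left out: Rpl37a-ps1 (34.3 to 22.5 FPKM without PBS 4), LOC257642 (46 to 25.6 FPKM without PBS 1), Lgals1 (109 to 65 FPKM without PBS 1) and Anpep (24.4 to 15.7 FPKM without PBS 4). Genes under about 1 FPKM rest on a few reads, and a level listed at 0 can be a failed estimate, as for Rb1 and, in PBS 3, Creb3.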
